A study of Danio rerio with 6 samples.

Results

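Mitosis genes encode the machinery that condenses, aligns and parts the chromosomes when a cell divides. The list taken here holds 40 symbols, and 39 of them were found among the 32268 genes of the zebrafish feature tables. The symbol incenp was not found. The symbol ube2c carries 2 gene IDs, whose counts were added together for levels and tested apart, so that a summary over the list covers 39 symbols or 40 IDs. The list is one of symbols, with no threshold on a measured value, and was drawn up with earlier results of these data known. Its genes were then followed through tumor cells, leukocytes, erythrocytes and germ cells of 2 single-cell samples, and through tumor, leukocyte and oocyte nuclei of 1 pooled nuclear sample.

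The animals were adult casper zebrafish with melanomas driven by BRAF V600E under the mitfa promoter, a promoter of the melanocyte lineage, on a p53-/- and mitfa-/- background. Embryos had been injected with mitfa-MITF and mitfa-GFP. Head and tail were removed, and GFP+ and GFP- cells or nuclei were sorted and loaded in equal numbers. Single cells came from 2 fish in samples E and F, and nuclei came from 3 fish in 1 reaction. All groups share genotype and tumor, there is no tumor-free animal among them, and the proportions of cell classes were set by the sort. The labels do not tie sample E or F to a particular fish. They were taken as 1 fish each, called fish E and fish F in the plots, and the germ cells stood at 2 of 1780 kept cells in E and 58 of 1002 in F.

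In a dividing cell, CDK1 bound to cyclin A or B starts mitosis, polo-like and Aurora kinases build the spindle, and condensins and topoisomerase II shape the chromosomes. The kinetochore holds each chromosome to the spindle, and the anaphase-promoting complex, a ubiquitin ligase called APC/C, then ends mitosis by marking cyclin B and securin for destruction. Most of these transcripts accumulate in G2 and M phase and are low in resting cells, while growing oocytes store several of them for the first divisions of the embryo. The roles given here are known mainly from human cells, mice, frogs and yeast.

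Sample E held 33314558 unique molecular identifiers (UMIs, counted transcript molecules) with a median of 16265 per kept cell, and sample F held 14364782 with a median of 8879. The 13380 kept nuclei had a median of 2160.5 UMIs. Classes were set by marker genes, none of which was a member. The marker values that follow are of the lists that set the classes, so they describe the gates and are no independent check. Tumor cells had 5468 and 7423 CPM (UMIs of a gene or list as a share of all UMIs of the class, scaled so that all genes sum to 1000000) of the 12-gene tumor marker list in samples E and F, against 49.7 and 42.8 CPM in leukocytes. The leukocyte markers stood at 101 and 213 CPM in tumor cells of E and F, against 6191 and 6845 CPM in leukocytes. Samples E and F shared 0 cell barcodes, E and the nuclei 4, and F and the nuclei 1. All levels below are CPM, and exact Poisson and Clopper-Pearson 95% intervals cover counting error only.

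The summed mitosis genes differed widely between cell classes. Tumor cells had 526 CPM in sample E (interval 517 to 536) and 150 CPM in sample F (142 to 159). Leukocytes had 620 CPM in E (593 to 647) and 656 CPM in F (630 to 682). Erythrocytes, which could be summed over 249 cells of E, had 787 CPM (760 to 814). Germ cells, summed over 58 cells of F, had 8405 CPM (8184 to 8629). The germ cells were highest, and tumor cells of F lowest, of these classes. In the few liver-marked cells no member UMI was seen, among 42879 UMIs of 2 cells in E (upper bound 86.0 CPM) and 111410 UMIs of 3 cells in F (upper bound 33.1 CPM), and the 9 fibroblast-marked and 6 keratinocyte-marked cells of F held 1 each. The part of free RNA in the sums of single cells was not tested further.

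**Figure D1:**
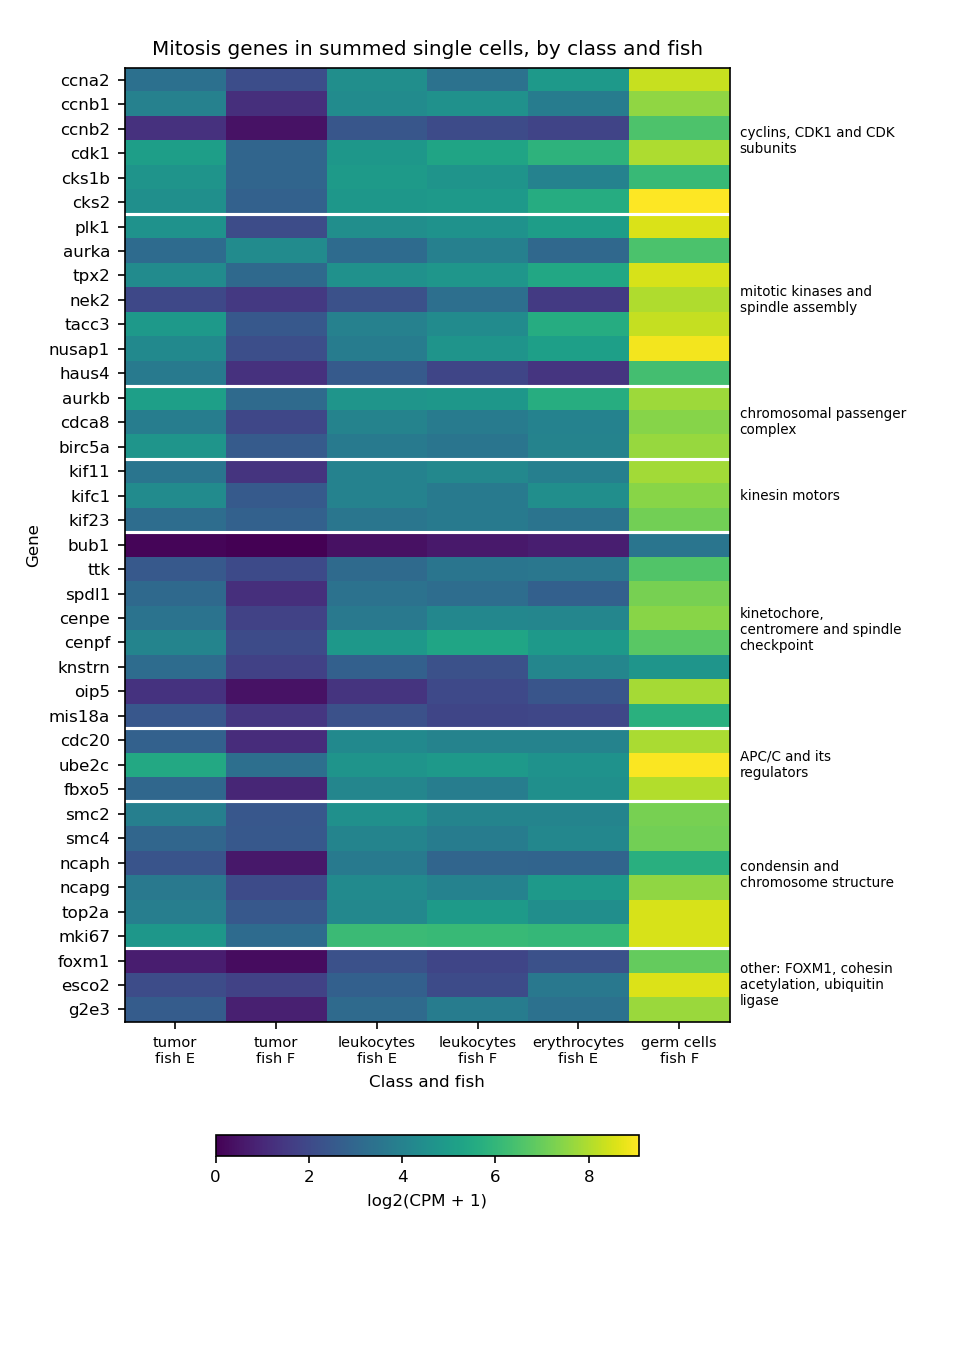
Level of each of the 39 mitosis genes, as log2(CPM + 1) in colour, in tumor cells, leukocytes, erythrocytes and germ cells of samples E and F. Rows are genes grouped by role and columns are the classes with at least 10 cells, and each row is read along its length because CPM is not corrected for gene length. The germ cell column is the highest in every row, and the tumor column of sample F is dark, that is low, in most rows.

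The genes with the most UMIs in each role group show this pattern gene by gene. Of the APC/C genes, ube2c (ENSDARG00000035770 and ENSDARG00000101618) encodes the ubiquitin-conjugating enzyme of the complex. It had 43.3 CPM in tumor cells of E and 9.0 in tumor cells of F, against 24.8 and 29.2 in leukocytes of E and F, 23.6 in erythrocytes and 525 in germ cells. Nearly all its single-cell counts, 1223 in E and 591 in F, belonged to the first ID, against 19 and 12 for the second. The APC/C activator cdc20 (ENSDARG00000100741) had 5.99 and 1.23 CPM in tumor cells of E and F, against 18.9 and 15.7 in leukocytes, 15.8 in erythrocytes and 239 in germ cells. Both tumor values of cdc20 thus lay below every other class, whereas the tumor and leukocyte values of ube2c overlapped.

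The chromosomal passenger complex corrects faulty attachments of chromosomes to the spindle. Its kinase gene aurkb (ENSDARG00000037640) had 33.5 and 7.89 CPM in tumor cells of E and F, against 25.8 and 27.1 in leukocytes, 48.8 in erythrocytes and 211 in germ cells. The survivin gene birc5a (ENSDARG00000075621) had 25.4 and 5.05 CPM in tumor cells, against 12.1 and 10.6 in leukocytes, 15.8 in erythrocytes and 205 in germ cells. For both genes the leukocyte values lay between the tumor values of the 2 samples.

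Among genes of chromosome structure, mki67 (ENSDARG00000091150) encodes Ki-67, which coats mitotic chromosomes and is the common histological mark of dividing cells. It had 26.6 and 8.01 CPM in tumor cells of E and F, against 72.4 and 69.0 in leukocytes, 64.6 in erythrocytes and 371 in germ cells. The gene top2a (ENSDARG00000024488), for topoisomerase II alpha, had 13.6 and 4.68 CPM in tumor cells, against 17.7 and 29.8 in leukocytes, 21.5 in erythrocytes and 363 in germ cells. Tumor cells were below the other classes in both samples for both genes.

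In the cyclin and CDK group, cdk1 (ENSDARG00000087554) had 32.9 and 6.78 CPM in tumor cells of E and F, against 26.7 and 38.7 in leukocytes, 57.5 in erythrocytes and 248 in germ cells. The gene cks2 (ENSDARG00000071410), for a small protein that binds CDKs, had 21.8 and 6.04 CPM in tumor cells, against 26.7 and 29.0 in leukocytes, 48.1 in erythrocytes and 538 in germ cells. The tumor and leukocyte values of cdk1 overlapped and those of cks2 did not.

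The kinesin motors slide and sort spindle microtubules. The minus-end motor gene kifc1 (ENSDARG00000001558) had 19.6 and 4.93 CPM in tumor cells of E and F, against 15.2 and 12.2 in leukocytes, 21.5 in erythrocytes and 175 in germ cells. The gene kif11 (ENSDARG00000010948), for the motor that pushes spindle poles apart, had 10.6 and 1.60 CPM in tumor cells, against 15.2 and 17.9 in leukocytes, 14.1 in erythrocytes and 227 in germ cells. At the kinetochore, cenpf (ENSDARG00000055133) had 16.2 and 3.2 CPM in tumor cells of E and F, against 27.3 and 39.0 in leukocytes, 28.5 in erythrocytes and 108 in germ cells. The kinetochore motor gene cenpe (ENSDARG00000063385) had 10.0 and 2.46 CPM in tumor cells, against 11.8 and 17.3 in leukocytes, 17.0 in erythrocytes and 176 in germ cells. Of these 4 genes, kifc1 alone had overlapping tumor and leukocyte values.

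For spindle assembly, tacc3 (ENSDARG00000005454), a gene for a protein that stabilises spindle microtubules, had 28.0 and 4.68 CPM in tumor cells of E and F, against 14.9 and 20.0 in leukocytes, 47.9 in erythrocytes and 309 in germ cells. The gene tpx2 (ENSDARG00000078654), whose product activates Aurora A, had 19.8 and 7.52 CPM in tumor cells, against 23.0 and 26.5 in leukocytes, 42.9 in erythrocytes and 371 in germ cells. The last role group holds the cohesin acetyltransferase gene esco2 (ENSDARG00000014685), which had 3.27 and 2.46 CPM in tumor cells, against 5.90 and 3.25 in leukocytes, 11.3 in erythrocytes and 391 in germ cells. It also holds g2e3 (ENSDARG00000001313), a ubiquitin ligase gene named for its expression in G2 and M phase, with 5.22 and 0.739 CPM in tumor cells, against 7.77 and 13 in leukocytes, 9.43 in erythrocytes and 207 in germ cells. The tumor and leukocyte values of tacc3 and esco2 overlapped, and those of tpx2 and g2e3 did not.

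Tumor cells of the 2 samples differed across nearly the whole list. In tumor cells, 38 of the 39 members were higher in E than in F, with a median ratio of 4.02 over the 38 members seen in both and a ratio of 3.50 for the sum. In leukocytes 19 members were higher in E and 20 in F, and the summed ratio was 0.945. The DNA replication list of 58 genes, which shares no gene with the members, stood at 711 and 623 CPM in tumor cells of E and F. The share of all genes higher in E was not counted. Over the genes tested, median CPM in tumor cells was 3.92 in E and 5.05 in F. With 1 tumor sum per sample this difference has no replicate check, and fish, dissociation, sort and depth cannot be told apart.

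The exception was aurka, the gene for Aurora A, the kinase of the spindle poles. It had 8.03 CPM (177 UMIs) in tumor cells of E and 20.0 CPM (162 UMIs) in tumor cells of F, against 8.08 and 14.3 CPM in leukocytes. In F only 6.79% of the tumor cells' aurka UMIs fell in cells with at least 5 other members, against 61.6% in E, whereas 98.1% of the aurka UMIs of F leukocytes did. Outside such cells an aurka UMI was seen in 22.4% of F tumor cells (90 of 401), against 0.364% of F leukocytes (1 of 275). In E that share was 6.09% of tumor cells (53 of 870), against 0.524% of leukocytes. Median depth was 12387.5 UMIs in F tumor cells and 8036 in F leukocytes, and its part in these shares was not tested. The aurka transcripts of F tumor cells thus lay mostly apart from the other mitosis genes. This was not particular to aurka. In F tumor cells the share in cells with at least 5 other members was 13.3% for nek2 (15 UMIs) and 20% for cdc20 (10 UMIs). It was 33.3% for oip5 (3 UMIs), 39.5% for tacc3 (38 UMIs) and 47.4% for smc4 (38 UMIs).

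Counted by cell, the mitosis genes were concentrated in a minority of tumor cells. Cells below 5000 UMIs were left out of the thinned shares. Thus 942 of 1022 tumor cells of E and 35 of 58 germ cells of F entered them. After each cell was thinned to 5000 UMIs, at least 5 members were seen in 102 of 942 tumor cells of E (10.8%, interval 8.92 to 13%) and in 10 of 362 of F (2.76%, 1.33 to 5.02%). The same held for 18 of 167 leukocytes of E (10.8%, 6.51 to 16.5%) and 19 of 214 of F (8.88%, 5.43 to 13.5%). Among erythrocytes of E it was 39 of 224 (17.4%, 12.7 to 23.0%), and among germ cells of F 33 of 35 (94.3%, 80.8 to 99.3%). Unthinned, the tumor shares were 14.9% in E and 5.21% in F, the leukocyte shares 11.2% and 8.94%, that of erythrocytes 19.3% and that of germ cells 89.7%.

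**Figure D2:**
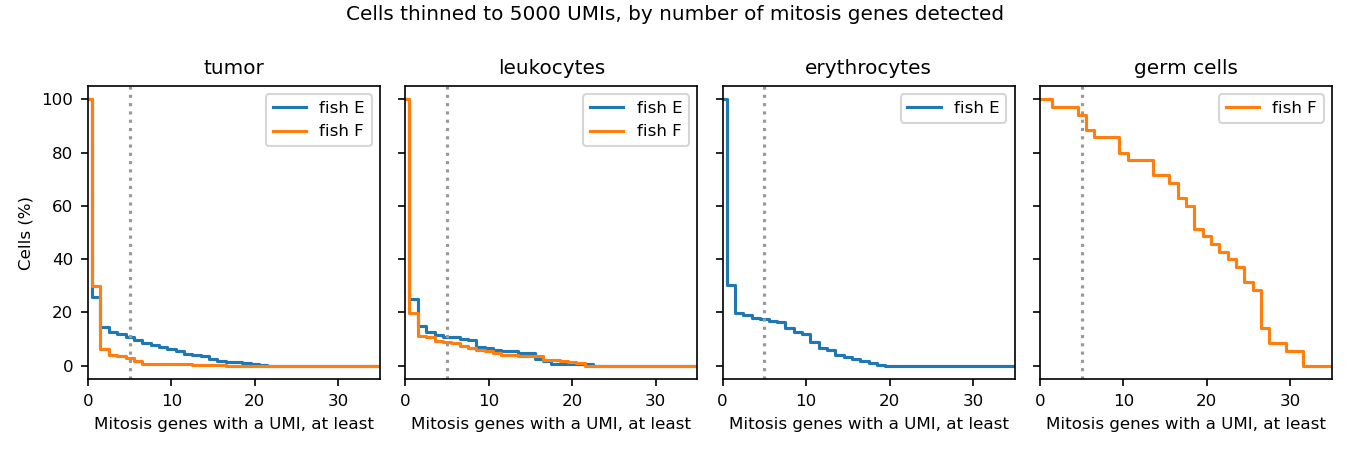
Percent of cells, thinned to 5000 UMIs, in which at least the number of mitosis genes on the horizontal axis was seen, with a panel for each cell class and a line for each sample. The line for tumor cells of sample F falls to 2.76% at 5 members against 10.8% in sample E, the lines of leukocytes lie close together, and germ cells stay high.

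The members were found together in the same cells. For each member, the share of its UMIs that fell in cells with at least 5 of the other members, unthinned, was taken within each class. The median of this share over the members was 96.5% in tumor cells and 96.8% in leukocytes of E, 75% in tumor cells and 98.6% in leukocytes of F, 98.5% in erythrocytes and 100% in germ cells. Since a cell enters this set through other genes of the same list, these shares are a description. Within leukocytes the sums were uneven. Neutrophils had 783 and 467 CPM in E and F, macrophages 479 and 448, T and NK cells 113 and 646, B cells 563 and 88.1, and leukocytes with no finer label 639 and 918. Those for T, NK and B cells rest on 5 to 23 cells a sample.

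Between tumor cells and leukocytes, none of the 39 member IDs tested passed an adjusted p of 0.05 in edgeR's quasi-likelihood test with Benjamini-Hochberg adjustment over all genes, when counts were summed by class and sample. Over all genes 6.03% were called higher and 7.9% lower in tumor cells. Unadjusted p was under 0.05 for 3 members with edgeR and also for 3 with DESeq2, which likewise called 0 members and, of the 12948 genes it gave an adjusted p, 6.12% higher and 8.15% lower. The median log2 fold change of the members was -0.74, against 0.18 over all genes tested. With samples E and F as a block, 8 members were lower in tumor cells, namely foxm1, ncaph, ccnb1, cdc20, g2e3, cenpf, fbxo5 and mki67, where 12.7% of all genes were called lower and 12.5% higher. For mki67 the log2 fold change was -1.72 ± 0.67 (SE, n = 2 each) with an edgeR adjusted p of 0.14, and with the block -2.0 ± 0.61 with an edgeR adjusted p of 0.0061. For cdc20 it was -1.91 ± 0.77 with an edgeR adjusted p of 0.15, and with the block -2.28 ± 0.65 with an edgeR adjusted p of 0.0031. Within samples, the log2 ratio of summed CPM was -0.24 in E, where 11 IDs were higher and 29 lower in tumor cells, and -2.12 in F, where 1 was higher and 39 lower. The members' median log2 ratio was -0.34 in E, against -0.30 over all genes tested, and -2.26 in F, against -0.13. In E the members thus lay near the bulk of genes.

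Few other genes of cell division were called in the same comparison. Against the 6.03% higher and 7.9% lower over all genes, of 81 further mitosis genes, 1 was higher and 2 lower in tumor cells (median log2 fold change -0.48), and of 58 DNA replication genes, 1 was higher and 1 lower (median 0.38). The kinesin gene kifc3 had 4.49 and 15.0 CPM in tumor cells of E and F, against 0.621 and 0 CPM in leukocytes. The replication helicase gene mcm4 had 52.8 and 21.4 CPM in tumor cells, against 8.70 and 6.77 in leukocytes, a log2 fold change of 2.56. By contrast dnmt1, for the maintenance DNA methyltransferase, had 5.08 and 6.04 CPM in tumor cells, against 32.3 and 22.2 in leukocytes, a log2 fold change of -2.04.

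Against erythrocytes, 3 members were called lower in tumor cells by edgeR and none higher, and of all genes 2.52% were called lower and 1.91% higher. They were foxm1, the gene for the transcription factor that drives G2 and M phase genes, esco2, and smc4, which encodes a condensin core subunit. Tumor cells of E and F had 0.635 and 0.246 CPM of foxm1, against 3.77 CPM in erythrocytes of E. The log2 fold change of foxm1 was -4.25 ± 0.86 (SE, edgeR adjusted p = 0.038). That of esco2 was -3.29 ± 0.67 (edgeR adjusted p = 0.038), and that of smc4, with 7.03 and 4.68 CPM in tumor cells against 17.4 in erythrocytes, was -2.89 ± 0.65 (edgeR adjusted p = 0.049). The members' median was -2.72, against 0.95 over all genes tested. With samples E and F as a block 24 members were lower, where of all genes 5.57% were called lower and 9.31% higher. With DESeq2 it was 20 members, where of the 8500 genes it gave an adjusted p 6.07% were called lower and 7.8% higher. Erythrocytes came from sample E alone, so their spread is taken from the other classes.

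The scale of these erythrocyte folds depends on the normalization. The 20 most abundant genes took 68.7% of erythrocyte UMIs, and the trimmed-mean factor for that class was 0.355, against 0.852 and 0.958 for tumor cells of E and F. In plain CPM within sample E the summed members had a log2 ratio of tumor cells over erythrocytes of -0.58, with 9 IDs higher and 31 lower in tumor cells and a median of -0.79, where the median over all genes tested was 1.49. The members lay below the bulk of genes on both scales.

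Germ cells showed the widest gap. In edgeR 16 members were lower in tumor cells than in germ cells and none higher, and of all genes 7.8% were called lower and 5.27% higher. The log2 fold changes of the 16 ran between -6.19 and -2.55, the largest adjusted p being 0.042, and the median over all 39 tested was -2.85, against 0.14 over all genes. The most negative fold change was that of foxm1, with 0.635 and 0.246 CPM in E and F, against 120 CPM in germ cells, at -6.19 ± 0.85 on the log2 scale (SE, edgeR adjusted p = 0.0081). Of the genes shown above by role, esco2 was at -5.35 ± 0.69 (edgeR adjusted p = 0.0079), g2e3 was at -4.30 ± 1.02 (edgeR adjusted p = 0.033) and cdc20 was at -4.25 ± 0.90 (edgeR adjusted p = 0.024). Also called were top2a at -3.56 ± 0.79 (edgeR adjusted p = 0.027), cks2 at -3.51 ± 0.81 (edgeR adjusted p = 0.031) and tpx2 at -3.01 ± 0.72 (edgeR adjusted p = 0.034), with fbxo5, ccna2, nusap1, ttk, smc4 and kif23. The other 3 were among the 5 most negative, with oip5 at -6.08, nek2 at -4.97 and ccnb2 at -4.81 on the log2 scale.

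The number of germ cell calls moved with the model. With samples E and F as a block 35 members were lower in tumor cells, where of all genes 11.8% were called lower and 12.7% higher. With DESeq2 it was 24 members, where of the 11836 genes it gave an adjusted p 7.65% were called lower and 8.97% higher. Germ cells came from sample F alone, so their spread rests on the other classes, and their normalization factor was 2.98. In plain CPM within sample F, the log2 ratio of the sum in tumor cells over germ cells was -5.80, and 39 of 40 IDs were lower in tumor cells. The median log2 ratio was -6.02 over members with UMIs in both classes, against -1.63 over all genes tested. The other lists are set against the 7.8% lower and 5.27% higher that edgeR without the block called over all genes. Of 81 other mitosis genes 21 were lower in tumor cells, led by ccnb3, a cyclin B3 gene, at -6.30 ± 0.78, trip13 at -4.74 and kif18a at -4.42 on the log2 scale. Of 58 replication genes 22 were lower, led by dbf4 at -5.66, pole at -4.75 and gins3 at -4.41. The medians were -2.33 and -2.31.

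Among the germ cells of F the list divided with the level of spermatid genes, which encode tail and axoneme proteins. Here 19 cells were high in them and 32 had few or none, called cells with and without spermatid genes, with 7 between. Of the meiosis genes counted, sycp1 had 4673 CPM in cells with spermatid genes, against 71.4 CPM in cells without. The genes sycp3 and dmc1 ran the other way, at 204 against 689 CPM and 26.6 against 104 CPM. Whether the 19 cells were past meiosis was not tested. Cells with spermatid genes had 20970 CPM of mitosis genes (interval 20133 to 21832), against 5780 CPM (5574 to 5990) in cells without. The replication list ran the other way, with 3103 CPM in cells with spermatid genes, against 10737 CPM in cells without. As ratios these are 3.63 for mitosis genes and 0.289 for replication genes. The 81 other mitosis genes were less far apart, with 15685 CPM in cells with spermatid genes, against 10836 CPM in cells without. The 7 cells between had 6273 CPM of mitosis genes and 9712 CPM of replication genes. All 58 cells are from 1 sample, so the split is a description with no test.

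Member by member, 30 were higher and 9 lower in cells with spermatid genes, with a median ratio of 3.06, 22 ratios over 2 and 6 under 0.5. The share of all genes higher in cells with spermatid genes was not counted, so these counts have no background beside them. The centrosome kinase gene nek2 had 1339 CPM in cells with spermatid genes, against 28.9 CPM in cells without. In these 2 sets foxm1 had 621 against 11.6 CPM, ube2c 2518 against 106 CPM and cdk1 833 against 120 CPM. These genes of the G2 and M machinery were high where spermatid genes were found. The cohesin acetyltransferase gene esco2 had 0 of 112781 UMIs in cells with spermatid genes, against 465 CPM in cells without, at least 17.5-fold lower when a floor of 3 counts over the group is used. The condensin genes smc2 and smc4 and top2a were also lower with spermatid genes. For top2a the values were 79.8 against 432 CPM, for smc2 62.1 against 170 CPM and for smc4 53.2 against 160 CPM. The sliding clamp gene pcna, of the replication list, had 0 UMIs in cells with spermatid genes, against 891 CPM in cells without.

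**Figure D3:**
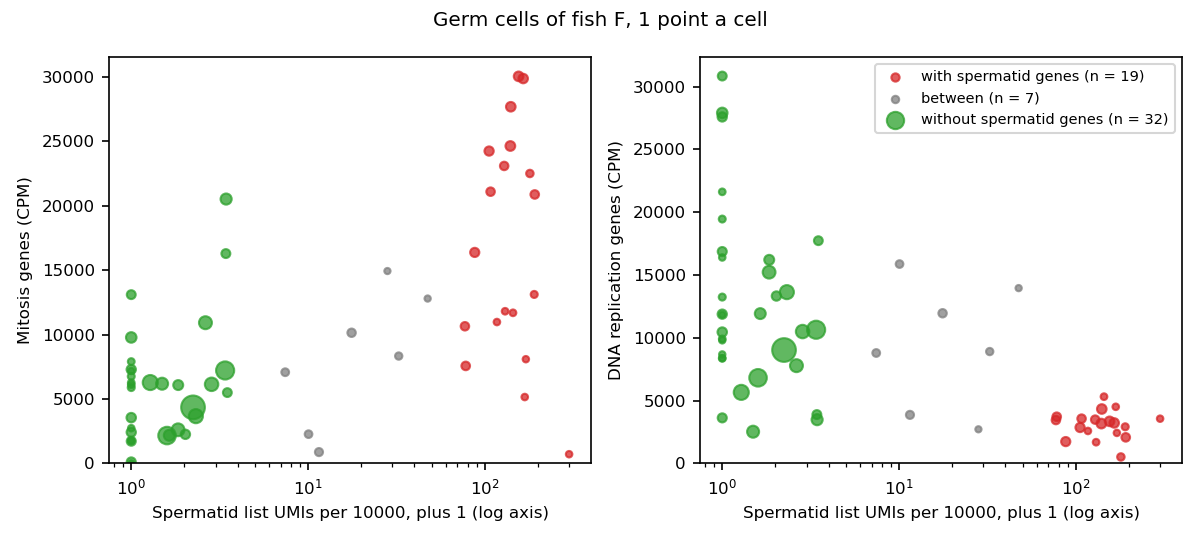
The 58 germ cells of sample F, with the level of spermatid marker UMIs on a log axis against the summed CPM of mitosis genes and of DNA replication genes in separate panels, larger points having more UMIs. Mitosis genes are highest to the right, where the 19 cells with spermatid genes summed to 20970 CPM, and replication genes are highest to the left.

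To ask whether mitosis genes follow DNA replication in the tumor, cells with 5000 or more UMIs were taken. Those with at least 6 replication UMIs of 5000 were called replicating. This is a range cut from a score, with 106 and 39 tumor cells of E and F and 16 and 33 leukocytes near the cut. In E, 49.3% of 138 replicating tumor cells had at least 5 members, against 4.23% of 804 other tumor cells. In F the shares were 15.6% of 32 replicating tumor cells, against 1.52% of 330 other tumor cells. In leukocytes they were 70.0% of 20 replicating cells, against 2.72% of 147 others in E, and 34.8% of 23 replicating cells, against 5.76% of 191 others in F. The sums were 1792 against 230 CPM in replicating and other tumor cells of E, 607 against 107 CPM in those of F, 2614 against 189 CPM in leukocytes of E and 1995 against 484 CPM in leukocytes of F. Median UMIs before thinning were 27672 in replicating and 19118.5 in other tumor cells of E, 15170.5 and 14836 in those of F, 33028 and 15300 in leukocytes of E, and 18569 and 13990 in leukocytes of F. The part of cell size in the shares was not tested.

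Between replicating and other tumor cells, edgeR called none of the 39 members tested, and 0% of all genes, at an adjusted p of 0.05. Unadjusted p was under 0.05 for 27 members. For this and the unadjusted counts below, the share over all genes is not given here. DESeq2 called 13 members higher in replicating cells, where of the 8041 genes it gave an adjusted p it called 1.17% higher and 0.124% lower, and edgeR with samples E and F as a block called 5, namely haus4, smc2, esco2, ccna2 and kif23, where it called 0.542% of all genes higher and 0.0214% lower. The median log2 fold change of the members was 2.48, against -0.12 over all genes tested. The stricter gate also raised the replication cut by a factor of 2, which left 59 and 20 replicating tumor cells in E and F. Cells between the cuts were then counted among the other cells. Under this stricter gate the members' median was 1.41, against -0.36 over all genes, and 12 members had an unadjusted edgeR p under 0.05. In the edgeR fit above, the medians were 2.35 for the other mitosis genes and 3.42 for the replication genes, which include those that set the cut. Within samples 39 of 40 IDs were higher in replicating tumor cells of E, and 32 of 39 with a UMI in F. The median log2 ratio over all genes tested was 0.28 in E and 0.30 in F.

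The steepest member was esco2, which acts while DNA is being copied. It had 15.9 CPM in replicating and 0.395 CPM in other tumor cells of E, and 25.1 against 0.278 CPM in those of F, a log2 fold change of 5.30 ± 0.70 (SE, n = 2 each, edgeR adjusted p = 0.097, with the block 0.0058). In leukocytes it had 32.7 CPM in replicating cells of E against 0 UMIs in the others, and 22 against 0.342 CPM in F. For aurkb, replicating tumor cells had 125 CPM against 11.9 in others of E, and 54.3 against 3.33 in F. For mki67 the values were 95.4 against 10.5 CPM in E and 33.4 against 5.56 in F. The replicating cells were higher in both samples for these genes.

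In F, 7 members were lower in replicating than in other tumor cells, namely ccnb2, nek2, oip5, cdc20, g2e3, kif11 and aurka, and the first 5 of these had 0 UMIs in the replicating cells. The values of cdc20, g2e3 and aurka are given here, aurka having been chosen after its values were seen. For cdc20, 17.9 CPM in replicating cells stood against 3.27 in other tumor cells of E, but 0 UMIs against 1.39 CPM in F, where a floor of 3 counts is above the level of the other cells. For g2e3 it was 15.4 against 2.88 CPM in E, and 0 UMIs against 0.834 CPM in F. The gene aurka had 12.2 CPM in replicating and 7.11 CPM in other tumor cells of E, and 15.3 against 20.7 CPM in F, a log2 fold change of -0.29 ± 0.65 (edgeR unadjusted p = 0.67).

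**Figure D4:**
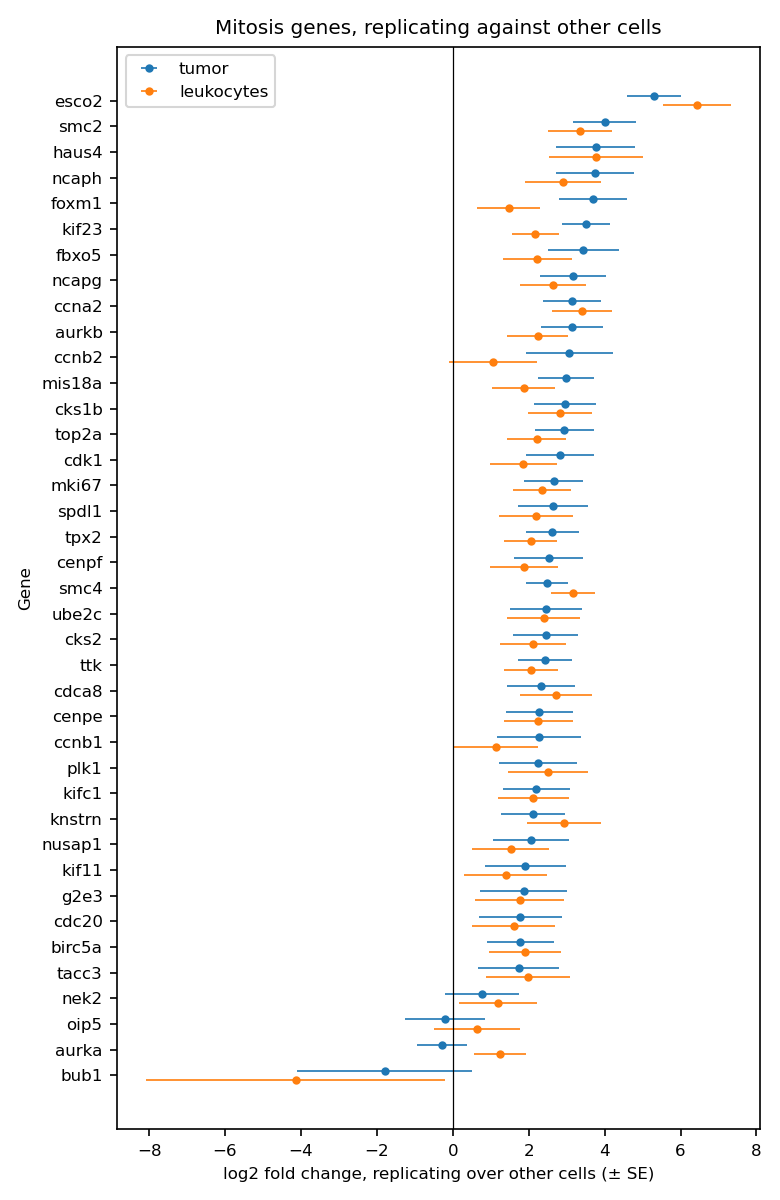
Log2 fold change of each mitosis gene in replicating over other cells, from edgeR, in tumor cells and in leukocytes of samples E and F. Bars are SE worked back from the F statistic of the test. Most points lie to the right of 0 in both classes, around the medians of 2.48 and 2.13, with esco2 in the top row at 5.30 and 6.43. The lowest row, bub1, rests on 6 UMIs in E and 10 in F over all cells.

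In leukocytes edgeR likewise called none of 39 members and 0% of all genes, with unadjusted p under 0.05 for 23. DESeq2 called 6 members, where it called 0.766% of the 6138 genes it gave an adjusted p higher, and the block called 1, esco2, where it called 0.0285% higher and 0.0357% lower. The median log2 fold change was 2.13, against -0.39 over all genes, and esco2 was at 6.43 ± 0.90 (SE, edgeR adjusted p = 0.32, with the block 0.037). Within samples 38 of 40 IDs were higher in replicating leukocytes in both E and F, where the median log2 ratio over all genes tested was 0.21 and 0.26. The difference between the tumor and leukocyte effects was tested as an interaction, an alternative added after the data were seen. No member passed it in edgeR, with or without the block, or in DESeq2, and none had an unadjusted p under 0.05 in any of them. Over all genes the 2 edgeR fits called 0% and DESeq2 0.00713%, which is 1 of the 14022 genes it gave an adjusted p, with a smaller replicating effect in tumor cells than in leukocytes. The members' median for this difference was 0.34, and it was -1.03 under the stricter gate. There the replication cut was also raised, and the leukocyte parts came from E alone, with 10 replicating and 145 other cells. The 2 medians are thus not a like comparison.

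Among nuclei, oocytes held most of the mitosis transcripts. Their sum was 9381, 8509 and 8112 CPM in fish 1, 2 and 3, and 8673 CPM over all 920 oocyte nuclei. Tumor nuclei had 799, 860 and 879 CPM in the 3 fish, and leukocyte nuclei 994, 1152 and 792 CPM. Liver nuclei had 227 CPM over all fish. Nuclei below 1000 UMIs were left out of the thinned shares that follow. After thinning to 1000 UMIs, at least 5 members were seen in 690 of 896 oocyte nuclei (77.0%), 20 of 1206 tumor nuclei (1.66%), 31 of 1232 leukocyte nuclei (2.52%) and 3 of 2467 liver nuclei (0.122%). Of the 20 tumor nuclei, 16 were among 350 of fish 3 and 3 among 660 of fish 1. In fish 2, 0 of 47 tumor nuclei, which allows a share of up to 7.55%, had that many.

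Oocyte markers were also counted in the other nuclei, and their level is set beside these sums. The same list set the oocyte class, and nuclei entered the other classes only below a cap on it. The gap in these markers between oocytes and other classes therefore describes the gates. The expected levels below rest on the capped values, and the part of the cap in the ratios was not tested. These markers, at 40150 CPM in oocyte nuclei, stood at 1361 CPM in tumor nuclei and 1656 CPM in leukocyte nuclei, and 16080 barcodes with 10 to 50 UMIs, taken as empty, held 18831 CPM of them and 2931 CPM of mitosis genes. At the ratio of mitosis genes to oocyte markers seen in oocytes, tumor nuclei would have 294 CPM of mitosis genes and had 822. The observed level was 1.05 times the expected in liver, 1.14 in exocrine pancreas, 1.23 in fibroblasts, 1.24 in endothelium, 2.44 in leukocytes, 2.80 in tumor nuclei and 2.95 in erythrocytes. Cyclin B genes made up 30.1% of member UMIs in oocytes, 27.1% in empty barcodes and 23.2% in liver nuclei, and 9.35% in tumor and 11.3% in leukocyte nuclei.

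**Figure D5:**
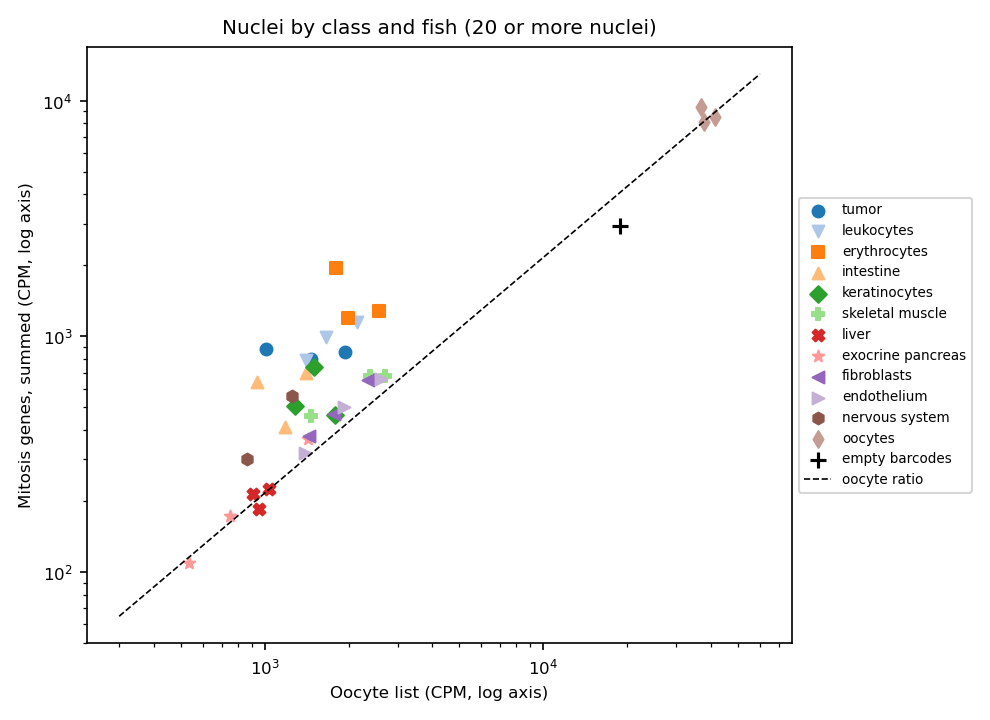
Summed CPM of mitosis genes against CPM of the oocyte marker list for nuclei of each class and fish with at least 20 nuclei, and for empty barcodes, with a line at the ratio seen in oocytes. Liver nuclei lie near the line, tumor and leukocyte nuclei lie above it at 2.80 and 2.44 times the expected level, and oocytes sit at the upper right. The gates used the oocyte marker list, with a cap on it for classes other than oocytes.

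By member, the level in tumor nuclei relative to that expected at the oocyte ratio differed. The expected levels again rest on the capped marker level of tumor nuclei. The cyclin gene ccnb1 had 51.8 CPM over all tumor nuclei, 0.941 times what the oocyte ratio gives. Empty barcodes held 0.721 times the summed members that the oocyte ratio gives, so this ratio is not that of the empty barcodes. The share of free RNA in tumor nuclei was not tested. In tumor nuclei the ratio of observed to expected level was 2.05 for ube2c, 8.42 for top2a and 8.84 for mki67. It was 45.9 for cenpf and 50.6 for cks2.

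Against oocytes, 36 of the 38 IDs tested were lower in tumor nuclei and none higher, where of all genes 38% were called lower and 31.5% higher. The log2 fold changes of the 36 ran between -6.37 and -2.64, with a largest edgeR adjusted p of 1.9e-05, and the median of all 38 was -4.13, against -0.10 over all genes. With fish as a block the count was also 36, where of all genes 38.9% were called lower and 31.5% higher, and with DESeq2 it was 36, where of the 15572 genes it gave an adjusted p 38.4% were called lower and 30.3% higher. Under the stricter gate 35 of 38 IDs were lower and 1 was higher, and the share over all genes is not given here. The higher ID was the second of ube2c (ENSDARG00000101618), which was not tested above. It had a log2 fold change of 2.12 (edgeR adjusted p = 0.033) on 3, 1 and 10 UMIs in tumor nuclei of fish 1, 2 and 3, against 3 and 8 UMIs in oocytes of fish 1 and 2. Free RNA was not subtracted from either class. Normalization deepened these folds, with trimmed-mean factors of 0.477, 0.384 and 0.758 for oocytes of fish 1, 2 and 3. Those for tumor nuclei were 1.08, 1.39 and 1.17. In plain CPM the median log2 ratio of the members was -3.15, -2.61 and -2.52 in fish 1, 2 and 3. Over all genes tested that median was 0.69, 1.09 and 0.16.

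Cyclin B genes, whose products pair with CDK1 and are stored in oocytes, were the most unequal. Of ccnb1, tumor nuclei had 58.5, 70.8 and 40 CPM in fish 1, 2 and 3, against 1742, 1593 and 1418 CPM in oocytes, a log2 fold change of -6.12 ± 0.56 (SE, n = 3 each, edgeR adjusted p = 8.2e-13). For cdc20 it was 22.5, 27.2 and 28.5 CPM in tumor nuclei, against 509, 494 and 479 in oocytes, a log2 fold change of -5.50 ± 0.52 (edgeR adjusted p = 2.1e-12). The groups did not overlap for either gene. For aurkb it was 17.5, 38.1 and 23.1 CPM in tumor nuclei, against 500, 488 and 511 in oocytes, a log2 fold change of -5.64 ± 0.61 (edgeR adjusted p = 3.5e-11). For ube2c it was 22, 54.4 and 43.6 CPM in tumor nuclei, against 412, 469 and 465 in oocytes, a log2 fold change of -5.13 ± 0.55 (edgeR adjusted p = 3.1e-11).

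The chromosome genes were less far apart. For mki67, tumor nuclei had 40, 32.7 and 57.8 CPM, against 191, 134 and 159 in oocytes, a log2 fold change of -3.06 ± 0.51 (SE, edgeR adjusted p = 7.3e-07). For top2a they had 26.5, 21.8 and 57.0 CPM, against 130, 122 and 124 in oocytes, a log2 fold change of -2.99 ± 0.48 (edgeR adjusted p = 3.6e-07). Both genes were lower in all 3 tumor sums than in any oocyte sum.

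The 2 members that edgeR did not call were cenpf and cks2. Their CPM are plain, while the fold changes are after normalization, which lowered tumor nuclei relative to oocytes. The kinetochore gene cenpf had 30.0, 10.9 and 90.8 CPM in tumor nuclei of fish 1, 2 and 3, against 37.5, 30.6 and 29.9 CPM in oocytes, a log2 fold change of -0.70 ± 0.56 (SE, edgeR adjusted p = 0.27). The gene cks2 had 112, 21.8 and 23.1 CPM in tumor nuclei, against 39.1, 44.6 and 46.6 CPM in oocytes, a log2 fold change of -0.78 ± 0.52 (edgeR adjusted p = 0.18). Each was above all oocyte values in 1 fish, fish 3 for cenpf and fish 1 for cks2, and below them in fish 2, whose tumor sum rests on 49 nuclei. Without fish 2 the fitted values were 0.31 for cenpf and 0.37 for cks2.

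Most other division genes were also low in tumor nuclei against oocytes, with exceptions among replication helicases. In the same fit 38% of all genes were called lower and 31.5% higher. Of 77 further mitosis genes tested, 70 were lower and 1 higher in tumor nuclei (median -3.42), the one higher being lmnb2, for lamin B2 of the nuclear envelope. It had 108, 59.9 and 82.8 CPM in tumor nuclei, against 8.42, 11.3 and 7.17 in oocytes. Of 57 replication genes 54 were lower and 2 higher (median -4.11). The helicase subunit gene mcm6 had 36.0, 21.8 and 16.9 CPM in tumor nuclei, against 0.561, 0.300 and 2.39 in oocytes, a log2 fold change of 4.14 ± 0.68, and mcm3 was at 2.64. The gene gmnn, for geminin, which blocks a second round of replication, had 59.5, 81.7 and 44.5 CPM in tumor nuclei, against 1643, 1919 and 1765 in oocytes, a log2 fold change of -6.16 ± 0.63.

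Against leukocytes, tumor nuclei had 0 of 38 member IDs called by edgeR, where of all genes 8.42% were called higher and 11.4% lower. DESeq2 and the fit with fish as a block also called 0, where of all genes the block called 9.03% higher and 12.3% lower and DESeq2, of the 15572 genes it gave an adjusted p, 8.3% higher and 10.6% lower, and unadjusted p was under 0.05 for 1 member with edgeR, 1 with the block and 2 with DESeq2. The edgeR member was cks2, with 112, 21.8 and 23.1 CPM in tumor nuclei, against 31.6, 32.8 and 17.3 in leukocyte nuclei, a log2 fold change of 1.23 ± 0.56 (SE, edgeR adjusted p = 0.13). The groups overlapped, and the high value was that of fish 1. The median over members was -0.24, against -0.06 over all genes, and the log2 ratios of the sums were -0.31, -0.42 and 0.15 in fish 1, 2 and 3. Of the other mitosis genes 1 of 77 was called, cdc25b, for a phosphatase that activates CDK1, with 9.0, 5.44 and 18.7 CPM in tumor nuclei, against 33.1, 62.1 and 52.0 in leukocyte nuclei, a log2 fold change of -1.88 ± 0.57 (edgeR adjusted p = 0.012). None of the 57 replication genes was called.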

How the data were processed

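Raw UMI counts per gene and barcode were deposited by the authors as count matrices, made with Cell Ranger (3.1.0 and 5.0.1) on GRCz10 per the submitters' processing notes. Spot position tables of the SRT sections were not used here. The filter for cells asked for 200 or more genes with no more than 20% of UMIs from mitochondrial genes, and that for nuclei for 500 or more UMIs. Nuclei were given to fish by hashtag counts at least 2 times their median (3655, 2891 and 3371 nuclei), and 2094 with no and 1369 with several hashtags stayed out of the fish sums. Marker lists set the classes, with cut-offs chosen after the files were seen. Nuclei of classes other than oocytes also had to lie below a cap on the oocyte list. Doublets were called with scrublet in scanpy 1.11.5, and 2 cells of E, 5 of F and 259 nuclei were called.

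Counts were summed by class and fish (at least 10 cells or 20 nuclei) and compared by quasi-likelihood tests in edgeR 4.0.16 under R 4.3.3, after filterByExpr and with TMM factors and Benjamini-Hochberg adjustment. The SE beside an edgeR log2 fold change is its absolute value divided by the square root of the test's F statistic. It is thus not a separately estimated error. Python 3.11.15 was used for levels. DESeq2 1.42.0, no filter on low counts, stricter gates, 10% mitochondrial UMIs, no called doublets, a fish block, other thinning and 3 members were alternatives. In simulated counts edgeR recovered 1.22% of 4-fold and 71.9% of 16-fold changes for tumor cells against leukocytes. For replicating against other tumor cells it recovered 1.22% and 44.7%, and for tumor against leukocyte nuclei 61.2% and 97.5%. In this simulation all classes shared a common mean profile and few genes were changed. For tumor cells against leukocytes it gave 69 calls among 11768 genes, where the data gave 864 higher and 1132 lower of 14338. The recovered shares are thus not the power of the real comparisons. In the single cells 0 calls do not show equal levels. Classes were taken from the same animals, which pairs them, and after removal of class means sums of the same fish correlated at 0.0995 to 0.731 (cells) and 0.0758 to 0.257 (nuclei), so blocked values stand where they change a call. With 2 samples, p-values rest on the spread of few animals.

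The members and lists were chosen with earlier results of these data known. Values in every sample are given for the 2 members of each role group with the most UMIs in cells and for members not called with the rest, and up to 3 genes a direction for the other lists.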

Additional observations from a re-analysis of the deposited data

Results flagged for a closer look

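Mitosis genes were also counted in barcodes that entered no comparison, and in 9 such sets the level was above what 0 counts allow. Cells that passed no marker gate had 228 CPM of summed members in sample E (273 cells) and 378 CPM in sample F (175 cells). Cells that passed several gates had 1503 CPM in E (14 cells) and 2269 CPM in F (18 cells). Nuclei with no gate had 1627 CPM (2980 nuclei) and nuclei with several gates 697 CPM (1417 nuclei). The 2 germ cells of E had 8984 CPM, the 8 erythrocytes of F 873 CPM and the 22 germ-marked nuclei 4311 CPM.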

How the results depend on the processing

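Counts of called genes in the single-cell comparisons, which rest on 2 samples, moved most. Without a filter on low counts the members called were 31 for tumor against germ cells, 3 against leukocytes, 25 against erythrocytes, 17 for replicating against other tumor cells and 9 for leukocytes, and over all genes 3637, 3264, 2064, 146 and 184 were called, with 11 for the interaction. With the replicate block they were 35, 8, 24, 5 and 1, and over all genes 3513, 3623, 2133, 79 and 9. With DESeq2 they were 20 against erythrocytes, 13 for replicating tumor cells and 6 for leukocytes, and over all genes 1179, 104, 58 and, for the interaction, 1. In nuclei the block changed no count of member calls. In tumor against leukocyte nuclei the members' median changed sign without the filter (1 call) and without fish 2 (0 calls), where calls over all genes ranged from 2029 to 2476 when a fish was left out, against 3092. Without 1 fish, 35 to 37 members were lower in tumor nuclei than in oocytes. In the fit with all fish 38% of all genes were called lower, and the share without 1 fish is not given here. Under the stricter gate, with its raised replication cut, cdc20 was at -0.45 and g2e3 at -0.24 in replicating over other tumor cells. When a fish was left out, cks2 ranged from -2.05 to 0.37 and cenpf from -1.49 to 0.31 in tumor nuclei over oocytes. Both were highest without fish 2. For the single cells, no residual degrees of freedom remain without 1 sample, and summed log2 ratios then ranged from -2.12 to -0.24 (tumor over leukocytes), 2.51 to 2.96 (replicating over other tumor cells) and 2.04 to 3.79 (leukocytes). The stricter gate gave summed levels of 580 CPM in tumor cells of E, 661 and 604 CPM in leukocytes of E and F, 721 CPM in tumor nuclei and 8143 CPM in oocytes, of which 72.8% had at least 5 members. Without thinning that share was 14.9% and 5.21% in tumor cells of E and F, 9.79% in tumor, 7.89% in leukocyte and 97.6% in oocyte nuclei, and with at least 3 members it was 5.80%, 7.06% and 96.1% in these nuclei. The cause of these shifts was not tested. Over all alternatives, 135 values of whole comparisons stayed within limits set around the main value, such as the counting interval for levels and shares. Another 28 were stronger, 14 moved outside the limits, 2 reversed and 1 was weaker. Of single genes 622 kept their direction and side of the threshold, 76 came to pass it, 3 no longer did and 4 reversed. Some member counts in the single cells were low: tumor cells of F held 10 UMIs of cdc20 and 6 of g2e3 among 8114316 UMIs.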
